A study of Rattus norvegicus with 12 samples.

Results

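Of the 33294 genes counted in PAC1 cells, which are rat vascular smooth muscle cells kept as a line, 134 were close to silent in differentiated cells and expressed in proliferative cells. These member genes were chosen by their measured counts: at most 3 counts in each of the 3 differentiated control libraries, and at least 100 counts in each of the 3 proliferative control libraries. The rule also set aside 10 names and all Hox genes, and 9 of the 10 names but 0 Hox genes had met both thresholds. Since the D1 and P counts selected the members, their difference between D1 and P is given as a description with no test. Both knockdown groups played no part in the selection.

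The data came from 12 poly(A) RNA-Seq libraries in 4 groups of 3. D1 was the more differentiated culture (PAC1-D) with control siRNA, and P was the more proliferative culture (PAC1-P) with control siRNA. RBPMS KD1 was PAC1-D with siRNA against Rbpms, which codes for an RNA-binding protein that controls splicing in smooth muscle, and MBNL KD was PAC1-D with siRNAs against Mbnl1 and Mbnl2, which code for splicing regulators of the muscleblind family. PAC1-D and PAC1-P were kept on different schedules of splitting, so the culture state and any lasting divergence of the cultures cannot be told apart. The labels do not say that the libraries of a group came from separate cultures, while the methods of the study describe its experiments in general as having independent biological replicates.

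Vascular smooth muscle cells are not terminally fixed: they can lower their contractile genes, divide and migrate, and later regain a contractile state. In any cell lineage many genes of other lineages are held silent, often by closed chromatin or, where a promoter is rich in CpG, by DNA methylation. Germline genes are a textbook case of promoter methylation in body cells. Splicing regulators such as RBPMS and MBNL act on transcripts that have been made, whereas a silent gene makes few or none.

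Total counts lay between 80842635 and 90771289 per library. The siRNA targets were lower where the labels say so: Rbpms had between 12299 and 13447 counts in D1 and between 3253 and 3398 in RBPMS KD1, and Mbnl1 had between 29746 and 30712 in D1 and between 6788 and 7347 in MBNL KD. The 13 smooth muscle markers summed to between 957816 and 994170 counts in D1, between 23190 and 24767 in P, between 485996 and 497689 in RBPMS KD1 and between 718331 and 800491 in MBNL KD. Acta2 and Tagln made up most of the D1 sum, and not every marker followed it. Des had between 204 and 232 counts in D1 and between 1213 and 1276 in P, while the other markers were lower in P. In MBNL KD, Myh11 (6036 to 6971, against 4241 to 4729 in D1), Des and Kcnmb1 were higher than in D1. The part of these markers in the knockdown counts below was not tested. Of 8 lists of cell type markers, 1 held a member, the endothelial list with Cdh5.

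The silent-to-expressed pattern was far more common than its mirror image. Before names were set aside, 143 genes had at most 3 counts in each D1 library and at least 100 in each P library, whereas 8 genes had at most 3 in each P library and at least 100 in each D1 library. With at least 1000 counts on the expressed side the numbers were 37 and 1, and with at most 10 counts on the silent side they were 279 and 26. The members made up 1.07% of the 12578 genes with at least 100 counts in each P library. Of the 134, 70 (52.2%) had 0 counts in all 3 D1 libraries.

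Summed over the members, the 3 D1 libraries held 65, 60 and 62 counts and the 3 P libraries 104289, 105936 and 105654. RBPMS KD1 held 167, 161 and 138 counts and MBNL KD 183, 132 and 122. All 6 knockdown sums were above the D1 sums, which the rule had held down, and the P sums were far above all others. At this depth the members stayed close to silent when either set of splicing regulators was depleted, in the sense that 88 of the 134 had at most 3 counts in each of the 6 knockdown libraries and 51 had 0 in all 6.

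**Figure D1:**
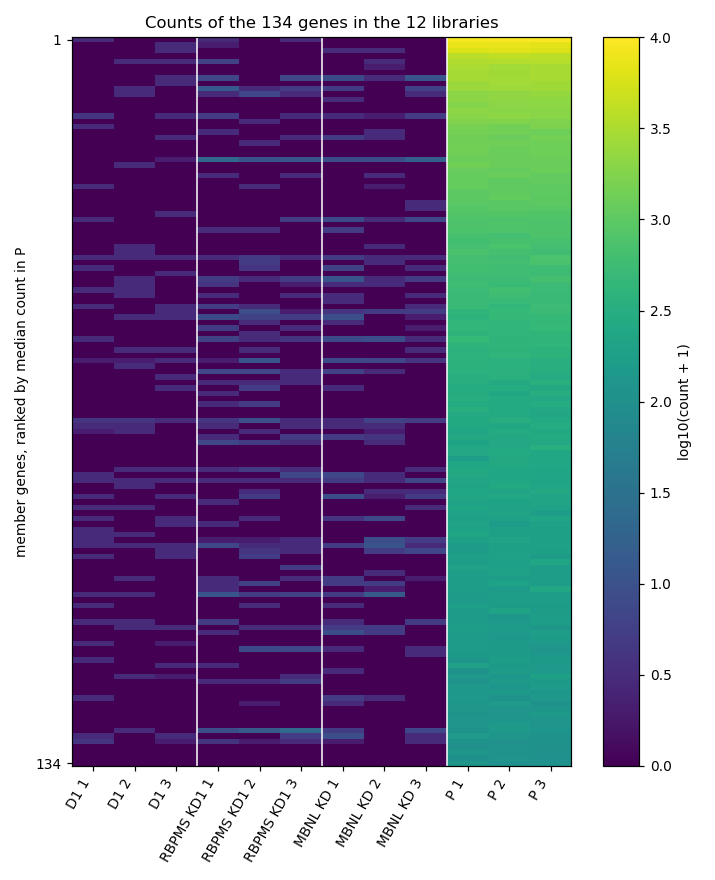
Counts of the 134 member genes (rows, ranked by median count in P) in the 12 libraries (columns, grouped as D1, RBPMS KD1, MBNL KD and P), coloured by log10(count + 1). The P columns are bright in every row because the rule asked for at least 100 counts there, and the knockdown columns are as dark as D1 in most rows.

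Within P the members spanned a wide range of counts, which are not corrected for transcript length. The median P count per gene ran from 108 to 9318, with quartiles of 174, 286.5 and 776.5. There were 46 members between 100 and 200 counts, 41 between 200 and 500, 18 between 500 and 1000, and 29 at 1000 or more. The coefficient of variation over the 3 P libraries, after scaling for library size, had a median of 6.99% over members (1.42% to 23.7%), so most members were steady between P libraries.

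The members with the most P counts did not share 1 function. Kif26a, which codes for an atypical kinesin, had 8937, 9549 and 9318 counts in P against 2, 0 and 0 in D1. Cracdl, related to a regulator of actin capping, had 7285, 7038 and 6757 in P and 0, 0 and 2 in D1. Egln3, a prolyl hydroxylase of the oxygen-sensing pathway, had 6119, 6503 and 6161 in P and 0, 0 and 2 in D1. In all 3 genes the 6 knockdown libraries held 2 counts or fewer each, and the P libraries of each gene lay close together.

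Bace2, an aspartyl protease of the cell membrane, stood out by having 0 counts in all 9 PAC1-D libraries, D1 and knockdowns alike, while P held 3838, 4158 and 3937. Against a floor of 3 counts in each D1 library, Bace2 was at least 1218-fold higher in P. Tex19.2, a rodent germline gene that acts against retrotransposons, was likewise at 0 in all 9, with 2922, 2714 and 2987 counts in P (at least 880-fold). Rnf130, a RING-type ubiquitin ligase, had a single count among those 9 libraries and 3098, 2795 and 2943 in P (at least 902-fold). For Homer2, a scaffold of synapses, P held 3351, 3502 and 3636 counts, D1 0, 2 and 2, and RBPMS KD1 5, 0 and 0. Pcsk6, a proprotein convertase that cleaves secreted precursors, had 2463, 2806 and 2723 counts in P, 0, 0 and 2 in D1, and 0 in all 6 knockdown libraries. Gdf10, a secreted ligand of the BMP family, had 2045, 2193 and 2293 in P, 0, 2 and 0 in D1, 2, 6 and 2 in RBPMS KD1 and 0, 0 and 2 in MBNL KD. These levels show P far apart from the other 3 groups in every library.

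Ion channels and transmitter receptors were the functional list with the most members. Of its 322 genes in the count table, 83 had at least 100 counts in each P library, 69 had at least 100 in each D1 library, 60 had both, and 11 were members, which is 13.3% of the 83. One gene of the list showed the mirror pattern. The lists were drawn up with earlier results of these data known, so the counts describe the members and are no evidence of enrichment.

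Potassium channel subunits made up 6 of the 11. Kcnk2 codes for TREK-1, a mechanically gated channel of the two-pore family, and had 2510, 2585 and 2697 counts in P, 0, 2 and 0 in D1, 12, 2 and 4 in RBPMS KD1 and 4, 0 and 5 in MBNL KD. Kcng3, a modulatory subunit that is silent as a channel on its own, had 1813, 2007 and 2063 in P and 0 in all 9 other libraries (at least 600-fold). Kcnk1, which codes for TWIK-1, had 157, 139 and 170 in P, 0 in all D1 libraries, 2, 0 and 0 in RBPMS KD1 and 8, 4 and 0 in MBNL KD. The remaining 3 were Kcns3, another modulatory subunit, the inward rectifier gene Kcnj15, and Kcnk5, with median P counts of 175, 192 and 147. Of 14 Kcnk genes in the table, 4 had at least 100 counts in each P library and 1 had at least 100 in each D1 library, and 3 were members.

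Other channel members were of several kinds. Grik3, a kainate receptor subunit, had 584, 595 and 561 in P, 0, 0 and 2 in D1, and 0 in all 6 knockdown libraries. Clca4l, of a family that regulates chloride channels, had 269, 307 and 277 in P and the D1 counts closest to the limit, at 3, 3 and 2. Trpv4, a calcium-permeable channel that responds to osmotic and mechanical stimuli, had a median P count of 185, and Gabre, a subunit of GABA type A receptors, had 174, 208 and 168. In these genes too the lowest P library was far above every PAC1-D library.

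**Figure D2:**
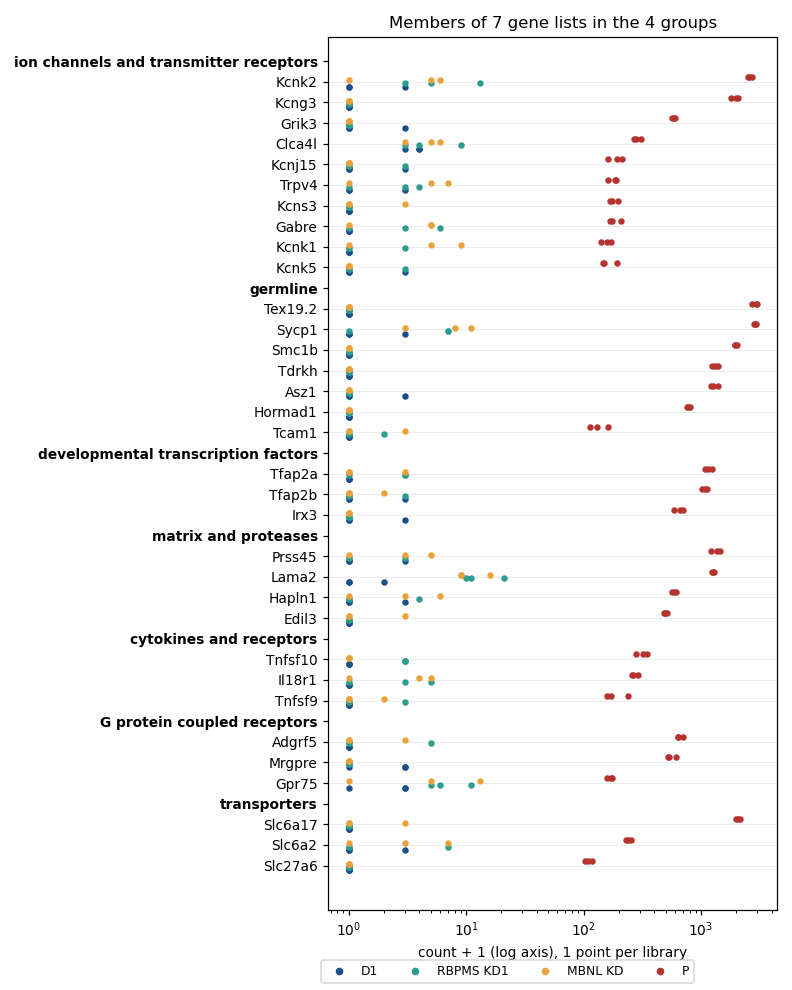
Counts plus 1 (log axis) of members of 7 gene lists, 1 point per library, coloured by group. The P points stand at 100 counts or more for every gene, and the D1 and knockdown points lie at the left, with Lama2, Gpr75, Kcnk2 and Sycp1 reaching 10 or more counts in 1 or more knockdown libraries.

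Germline genes gave 7 members of 305 in the table, beside 8 more genes of the same list that met both thresholds but whose names the rule set aside. Sycp1, which forms the transverse filaments of the synaptonemal complex in meiosis, had 2863, 2812 and 2944 counts in P and 0, 0 and 2 in D1. Smc1b, the meiotic form of a cohesin subunit, had 2017, 1948 and 1955 in P and 0 in all 9 other libraries (at least 604-fold). Tdrkh, of the piRNA pathway, had 1390, 1247 and 1324 in P and also 0 in all 9 (at least 404-fold). Asz1, another gene of the piRNA pathway, had 1384, 1260 and 1213 in P and 2 counts in 1 D1 library. Hormad1, a protein of the meiotic chromosome axis, had 769, 804 and 766 in P and 0 in all 9 others, and Tcam1, a testicular adhesion molecule, had 130, 160 and 112. Of the germline list as a whole, 118 genes had at most 3 counts in each D1 and each P library, and 49 had at least 100 in each library of both.

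Among developmental transcription factors, 3 of 214 listed genes were members. Tfap2a and Tfap2b, AP-2 factors of neural crest and epidermis, had 1146, 1239 and 1086 and 1121, 1073 and 1025 counts in P. Tfap2a was at 0 in each D1 library and Tfap2b at 2, 0 and 0. Irx3, a homeobox factor of the Iroquois group, had 708, 662 and 586 in P and 0, 2 and 0 in D1. No knockdown library held more than 2 counts of any of the 3. Zfp37 was the 1 member of 349 listed zinc finger genes, with 278, 278 and 250 counts in P and 0 in all other libraries.

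Matrix and protease genes gave 4 members of 313. Prss45, a serine protease, had 1368, 1227 and 1464 counts in P and 0, 0 and 2 in D1. Lama2, the alpha 2 chain of laminin in muscle basement membranes, had 1280, 1231 and 1268 in P and 0, 0 and 1 in D1. Hapln1, which links hyaluronan to proteoglycans, had 608, 587 and 565 in P, and Edil3, a secreted ligand of integrins, had 488, 489 and 508. Lama2 was the 1 gene of these 4 with more than 5 counts in any knockdown library.

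Signalling and immune genes were few. Tnfsf10, which codes for the death ligand TRAIL, had 320, 279 and 348 counts in P, Il18r1, a receptor subunit for interleukin 18, had 260, 262 and 290, and Tnfsf9, the ligand of 4-1BB, had 172, 156 and 240, and all 3 were at 0 in each D1 library. Tlr2, a sensor of bacterial lipoproteins, had 560, 550 and 662 in P and 0, 2 and 0 in D1. C6, of the complement cascade, had 156, 186 and 194 in P and 2 counts in each D1 library. Among G protein coupled receptors, Adgrf5 had 634, 640 and 704 counts in P, Mrgpre 529, 610 and 528, and Gpr75 158, 174 and 169. Of 12 leukocyte markers, Tyrobp was at 0 in all libraries and Ptprc, Itgam and Adgre1 had at most 4 counts in any. Coro1a had 0, 4 and 0 counts in D1 and 34, 38 and 16 in P, Cd3e 8, 4 and 2 and 16, 22 and 16, and Lyz2 0, 3 and 0 and 6, 10 and 16. Cd14 made up most of the summed list, which lay between 5033 and 5445 in D1, between 4648 and 4848 in P, between 7488 and 7652 in RBPMS KD1 and between 4270 and 5018 in MBNL KD. The part of these markers in the counts of immune members was not tested.

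Transporters, junction genes and lipid enzymes closed the lists. Slc6a17, a carrier of neutral amino acids into synaptic vesicles, had 1990, 2152 and 2059 counts in P and 0 in each D1 library (at least 633-fold), and Slc6a2, the noradrenaline transporter, had 255, 236 and 228 in P. Slc27a6, a fatty acid transport protein, had 102, 116 and 109. Dsc2, a desmosomal cadherin, had 127, 126 and 123 in P and Cdh5, the cadherin of endothelial junctions, had 126, 138 and 122, and both were at 0 in all 9 PAC1-D libraries. Elovl7, a fatty acid elongase, had 164, 130 and 166 in P, and Syt4, a synaptotagmin, 130, 168 and 148. Beside Cdh5, the 13 endothelial markers in the table were mixed. Those at 100 counts or more numbered 3 in each D1 library and 7 or 8 in P. Esam, an adhesion molecule of endothelial junctions, had 12, 8 and 6 counts in D1 and 3638, 3539 and 3673 in P, Erg between 83 and 94 in D1 and between 807 and 876 in P, Tek 23 or 24 in D1 and between 297 and 368 in P, and Vwf between 37 and 42 in D1 and between 85 and 120 in P. Kdr had at most 4 counts, Tie1 at most 6 and Sox17 at most 2 in any library, Pecam1 had between 3 and 10 in P and between 2 and 6 in D1, and Emcn was at 0 in all 12. The summed counts of the list, most of them from Eng, lay between 25224 and 25789 in D1, between 20286 and 21010 in P, between 41343 and 42369 in RBPMS KD1 and between 24158 and 27745 in MBNL KD, and their part in the Cdh5 counts was not tested. In all, 42 members were in at least 1 functional list, and the lists of epithelial, striated muscle, histone, olfactory receptor, cilia and Y-linked genes held 0 members. The Y-linked list had 1 gene that met both thresholds and whose name the rule set aside.

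At the P threshold the values just inside were 102, 116 and 109 for Slc27a6, 102, 116 and 110 for LOC120099857, and 131, 100 and 108 for LOC120100812. Just outside stood Cpxm2 with 127, 96 and 116, Hs3st6 with 96, 98 and 107, and LOC120093819 with 96, 97 and 101. At the D1 threshold the closest members included Clca4l and Nme9, the latter with 3, 0 and 1 counts, and the closest genes outside were Hmx2 with 0, 4 and 0, LOC103693274 with 0, 0 and 4, and Rprm with 0, 0 and 4. A further 38 genes in all would enter with a limit of 4 counts and 136 with a limit of 10, so the set has no natural edge in D1.

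A count of 1 to 3 carries little information. For Kif26a the ratio of P to D1 was 12861 with an exact 95% interval from 3560 to 106205, and for Clca4l 98.6 with an interval from 49.8 to 229, which cover counting error only. In the 9 PAC1-D libraries, 342 values of the members were above 0, and 83.6% of them were even numbers and 58.8% were exactly 2. The library totals also exceed the number of reads to which the methods say each library was subsampled, which counts of fragments could not do with 1 count each. A count of 2 can thus be 1 fragment, and the intervals above, which take counts as independent, are too narrow.

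RBPMS depletion left 99 of the 134 members (73.9%) at 3 counts or fewer in each of its 3 libraries, and 63 at 0 in all 3. Over 3 counts in each RBPMS KD1 library were found for 4 members (2.99%): Lama2, LOC120094285, Gpr75 and Nxph3, the last a neurexophilin. The same was so for 0.492% of the 14214 other genes with at most 3 counts in each D1 library. MBNL depletion left 101 members (75.4%) at 3 or fewer in each library and 67 at 0 in all 3, and 1 member, Lama2, had over 3 in each (0.746%), beside 1.13% of those other genes. Among the 192 other D1-silent genes with at least 20 counts in each P library the shares were 4.17% and 9.38%. The MBNL KD share rests on 1 gene and on this limit: without 1 MBNL KD library 5 to 8 members were over 3 in each, and at over 0 counts the members' share was 9.70%, beside 4.17% of all other silent genes and 15.1% of the 192. At over 0 counts in RBPMS KD1 the shares were 14.2%, 3.44% and 15.1%. No member had over 10 counts in each library of either knockdown.

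Measured against P, the knockdown levels were small. The highest of the 6 knockdown libraries, scaled for library size, had a median of 0.336% of the lowest P library over the members, and was under 1% for 88 of them. The largest value was 20.9%, for LOC120094285, which also has a low P count (112, 147 and 126). For Lama2 it was 1.73%, for Gpr75 7.96% and for Kcnk2 0.511%. The summed count over 6 knockdown libraries had a median of 2 and a highest value of 70 for the 29 members at 1000 or more in P, and a median of 2 and a highest value of 52 for the 46 members under 200, medians too close to 0 to compare.

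The D1 side of the comparison was held at 3 or fewer by the rule, so it was repeated with the genes chosen on 2 replicates of D1 and P and read in the replicate left out, an addition made after the data were seen. This gave 150, 159 and 160 genes, of which 89.3%, 84.3% and 83.8% met the thresholds in the left-out replicates. In the set chosen without replicate 1, the left-out D1 library held 150 summed counts, the RBPMS KD1 libraries 215 to 243 and the MBNL KD libraries 179 to 248. Without replicate 2 the values were 196 in D1, 231 to 258 and 306 to 389, and without replicate 3 they were 206, 239 to 256 and 209 to 281. In each set every knockdown library had a higher summed count than the left-out D1 library, which is 1 library per set. Without replicate 1, genes over 3 counts numbered 16 in the left-out D1 library and 22 to 36 in the knockdown libraries. Without replicate 2 they numbered 23 and 24 to 38. Without replicate 3 they numbered 24 and 24 to 39, so that 1 RBPMS KD1 library equalled D1. The 3 sets overlap in their genes.

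In the fit of all 12 libraries with edgeR's quasi-likelihood test, 17511 genes were tested, the 134 members among them, and calls needed an adjusted p (Benjamini-Hochberg) below 0.05 and an absolute log2 fold change over 1. Against D1, 14 members (10.4%) were called higher in RBPMS KD1, beside 3.35% of all genes, and 11 (8.21%) were called higher in MBNL KD, beside 6.27%. No member was called lower in either. The rule used the D1 side of both contrasts, which held it at the bottom of the scale, so nothing is read from these shares. When each contrast was fitted to its own 6 libraries, 0 members passed the filter on low counts, so the members entered the fit only through their P counts. The calls are therefore given as a description, with the counts behind them and no p.

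Lama2 had the highest median count over the 6 knockdown libraries. It had 20, 9 and 10 counts in RBPMS KD1 and 8, 8 and 15 in MBNL KD against 0, 0 and 1 in D1, where the rule allowed no more than 3. LOC120094285, an uncharacterised gene, had 8, 12 and 22 counts in RBPMS KD1, 4, 0 and 6 in MBNL KD and 0, 2 and 0 in D1, so that 1 MBNL KD library was at 0. These were the 2 members that reached 8 counts in every library of a knockdown.

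The other calls rested on fewer counts. In RBPMS KD1, Kcnk2 had 12, 2 and 4 counts against 0, 2 and 0 in D1, and Gpr75 10, 4 and 5 against 2, 2 and 0. Sycp1 was called in both knockdowns, on 6, 0 and 6 counts in RBPMS KD1 and 7, 2 and 10 in MBNL KD. In MBNL KD, Tlr2 had 10, 2 and 4 counts, Cyth4, an exchange factor for ARF GTPases, 7, 2 and 6, and LOC120100933 7, 8 and 2, and each of these 3 had 2 counts in 1 D1 library and 0 in the others. Of the 14 calls in RBPMS KD1, 10 had every count under 10, and of the 11 in MBNL KD, 8 had.

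Several called members were at 0 in D1 and at a few counts in a knockdown, where no fold is given. Tnfsf10 had 2, 2 and 2 counts in RBPMS KD1, Rtn1, a reticulon, 2, 2 and 4, Map7, a microtubule-associated protein, 2, 4 and 0, and Fam161a 4, 0 and 2. Il18r1 had 2, 0 and 4 in RBPMS KD1 and 4, 3 and 0 in MBNL KD, Gabre 2, 5 and 0 and 4, 4 and 0, and LOC498759 6, 6 and 2 and 5, 2 and 0. With the counts halved and rounded up, an alternative added after the data were seen, 8 of the members were called in RBPMS KD1 and 9 in MBNL KD. Calls with over 3 counts in every knockdown library numbered 3 for RBPMS KD1 (Lama2, LOC120094285 and Gpr75) and 1 for MBNL KD (Lama2).

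MBNL KD against RBPMS KD1 is the contrast that the rule did not use. In it 10 members (7.46%) were called, 4 higher and 6 lower in MBNL KD, beside 11.8% of all genes in either direction. In this contrast too the members passed the filter on low counts only through P, and nothing is read from the share. LOC120094285 had 4, 0 and 6 counts in MBNL KD and 8, 12 and 22 in RBPMS KD1, and Kcnk1 8, 4 and 0 and 2, 0 and 0. LOC120094285 was the 1 called member with a count of 10 or more, and with halved counts 2 calls were left, Rtn1 and LOC120094285.

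**Figure D3:**
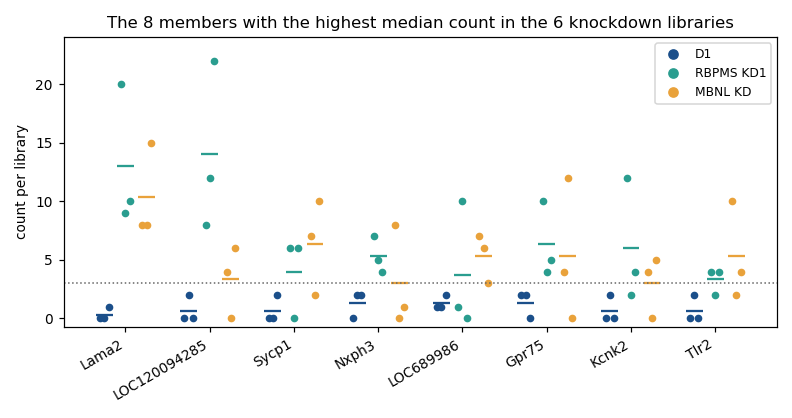
Counts per library of the 8 members with the highest median over the 6 knockdown libraries, in D1, RBPMS KD1 and MBNL KD (points are libraries, short lines are means of 3, and the dotted line marks 3 counts). The Lama2 knockdown points lie between 8 and 20 with D1 at 0 or 1, and most other genes have at least 1 knockdown library at or under the line.

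Of the 134 members, 130 were matched by symbol to the RefSeq gene table of GRCr8, a later assembly than the mRatBN7.2 used for counting. There were 113 protein-coding genes and 16 long non-coding RNAs, and 30 members carried only an uncharacterised LOC or RGD symbol. Chromosome 2 held 22 members, 2.67% of its genes with at least 100 counts in each P library. By the same share, chromosome 1 held 14 (0.915%), chromosome 9 held 10 (2.09%), chromosome 19 held 9 (2.33%) and chromosome 20 held 0, beside 1.07% over all genes. The Y chromosome held 2 (LOC103694543 among them), or 18.2% of only 11 such genes. Of the 8 listed Y-linked genes, 3 had at least 100 counts in each D1 library.

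Promoters of 300 bases, 250 before to 50 after the RefSeq start in GRCr8, were at hand for 104 members and 22203 genes in all. CpG observed over expected compares the number of CpG dinucleotides with that from the C and G content. Its median was 0.561 over the members, 0.778 over the other genes with at least 100 counts in each P library and 0.226 over genes with at most 3 counts in each D1 and each P library. At 0.6 or more stood 47.1% of the members, 73.9% of the other P-expressed genes and 11.5% of the genes silent in both. Over all 22203 promoters the median was 0.495 and 42.8% stood at 0.6 or more, close to the members. At a limit of 0.75 the shares were 28.8%, 54.7% and 5.97%, in the same order. These are descriptions over genes, with no test.

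**Figure D4:**
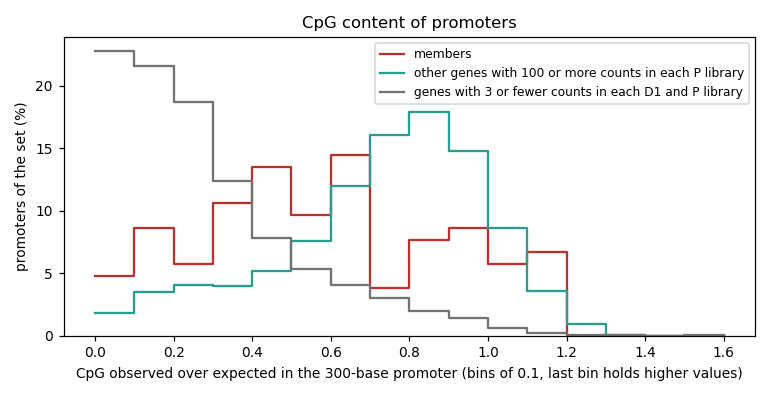
Share of promoters (%) by CpG observed over expected, in bins of 0.1, for members, for other genes with at least 100 counts in each P library and for genes with at most 3 counts in each D1 and P library. Members spread over the whole range up to 1.2, with a median of 0.561, where the other sets have 0.778 and 0.226 and all promoters 0.495.

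Members of both kinds are shown by Rnf130, whose promoter holds 58 CpG, the most of any member, and Tnfsf10, which holds 6. Rnf130 lies at chr10:34844035-34844334 on the plus strand of GRCr8 and Tnfsf10 at chr2:112136689-112136988 on the plus strand, and capitals mark each CpG.
Rnf130: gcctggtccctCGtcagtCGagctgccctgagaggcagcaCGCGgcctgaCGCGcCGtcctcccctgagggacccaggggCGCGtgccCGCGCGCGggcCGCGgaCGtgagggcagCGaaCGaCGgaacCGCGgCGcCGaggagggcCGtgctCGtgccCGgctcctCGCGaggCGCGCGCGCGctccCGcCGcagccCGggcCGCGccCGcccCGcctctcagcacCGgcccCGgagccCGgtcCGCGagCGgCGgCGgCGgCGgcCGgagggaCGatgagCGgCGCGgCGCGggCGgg
Tnfsf10: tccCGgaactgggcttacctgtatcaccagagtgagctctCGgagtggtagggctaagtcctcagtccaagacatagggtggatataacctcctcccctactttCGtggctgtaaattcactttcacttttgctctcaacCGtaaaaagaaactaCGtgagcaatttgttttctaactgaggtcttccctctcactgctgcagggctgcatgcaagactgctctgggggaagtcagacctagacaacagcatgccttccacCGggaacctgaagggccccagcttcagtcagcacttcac

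Sequence motifs were searched on both strands of the same windows. The GC box GGGCGG was in 47.1% of member promoters and 39.7% of all, the E-box CACGTG bound by MAX and MGA dimers in 7.69% and 7.08%, and the E2F6 type motif GCGGGAA in 5.77% and 5.17%. The AP-1 motif TGANTCA was in 4.81% and 6.91%, the TEAD motif GGAATG in 9.62% and 13.5%, the TATA box TATAAA in 10.6% and 13.5%, and the CArG box, bound by serum response factor in contractile genes, in 0.962% and 1.48%. The GC box gave the largest gap between members and all promoters among the 7 motifs, in percentage points, and other P-expressed genes held it in 62.8% and genes silent in both states in 14.0%.

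Smc1b and Hormad1 are shown because E2F6 and MGA type sites are known in promoters of meiotic genes. They are not typical of the germline members: Sycp1, Tex19.2, Tdrkh and Asz1 held neither motif, and Tcam1 held the E-box only. Other P-expressed genes held the E2F6 type motif in 8.51% and the E-box in 9.61%, above the members' shares. Fgg, the gamma chain of fibrinogen, is shown because it holds a TATA box. In Smc1b, at chr7:118122599-118122898 on the minus strand, capitals mark the E2F6 type motif on the reverse strand. In Hormad1, at chr2:185805422-185805721 on the plus strand, they mark the E2F6 type motif and then the E-box. In Fgg, at chr2:170652833-170653132 on the plus strand, they mark the TATA box, and all 3 are of GRCr8. Fgg had 392, 424 and 416 counts in P and 0 in each D1 library.
Smc1b: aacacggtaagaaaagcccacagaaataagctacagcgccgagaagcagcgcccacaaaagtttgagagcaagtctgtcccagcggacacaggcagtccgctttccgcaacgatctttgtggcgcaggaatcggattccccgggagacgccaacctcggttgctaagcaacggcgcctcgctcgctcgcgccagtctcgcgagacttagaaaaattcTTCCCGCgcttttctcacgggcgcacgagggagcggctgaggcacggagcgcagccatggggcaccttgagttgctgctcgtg
Hormad1: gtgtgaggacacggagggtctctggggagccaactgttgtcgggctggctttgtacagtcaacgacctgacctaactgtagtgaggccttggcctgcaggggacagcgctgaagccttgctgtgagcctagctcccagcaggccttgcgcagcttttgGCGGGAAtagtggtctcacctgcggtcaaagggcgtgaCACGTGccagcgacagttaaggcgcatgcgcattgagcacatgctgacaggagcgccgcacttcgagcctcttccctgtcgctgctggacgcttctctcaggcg
Fgg: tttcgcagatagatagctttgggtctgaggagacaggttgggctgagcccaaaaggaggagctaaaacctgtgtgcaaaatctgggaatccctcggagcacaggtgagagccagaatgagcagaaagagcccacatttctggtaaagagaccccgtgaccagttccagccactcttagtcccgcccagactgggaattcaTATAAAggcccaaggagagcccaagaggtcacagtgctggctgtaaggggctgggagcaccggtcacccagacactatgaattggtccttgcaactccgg

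Members stood next to each other in 6 pairs on the GRCr8 map, of any gene type. These were Lypd4 and Dmrtc2, Rimklb and Mfap5, Cyth4 and Elfn2, Kif26a and LOC120103631, LOC120098550 and LOC120098551, and LOC103690742 and LOC363181. Lypd4 and Dmrtc2, a gene of the doublesex-related factors, are transcribed away from each other and share 202 bases of promoter. Lypd4 had 381, 430 and 386 counts in P and Dmrtc2 669, 733 and 634, and Lypd4 was at 0 in all 9 PAC1-D libraries while Dmrtc2 had 2 counts in 1 D1 and in 1 MBNL KD library. The Dmrtc2 promoter lies at chr1:89593939-89594238 on the plus strand of GRCr8, and capitals mark the stretch it shares with Lypd4.
Dmrtc2: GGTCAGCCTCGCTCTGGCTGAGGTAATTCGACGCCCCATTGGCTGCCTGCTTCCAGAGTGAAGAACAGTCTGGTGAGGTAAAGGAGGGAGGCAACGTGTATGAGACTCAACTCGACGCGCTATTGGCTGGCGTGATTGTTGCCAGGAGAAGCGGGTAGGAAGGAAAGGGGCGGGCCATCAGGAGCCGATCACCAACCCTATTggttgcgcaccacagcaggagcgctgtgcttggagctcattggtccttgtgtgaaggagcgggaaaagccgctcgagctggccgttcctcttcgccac

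The expression of neighbouring genes in D1 was also described. Of the protein-coding genes directly before and after a member, 35.4% and 42.0% had at least 100 counts in each D1 library, against 65.3% on both sides of all genes with at least 100 counts in each P library. Of those reference genes, 93.5% themselves had at least 100 counts in each D1 library. No share was taken around all protein-coding genes or around other D1-silent genes. The gap thus does not show how unusual the members' surroundings are. Farther away the shares lay on both sides of the reference: 50.4% against 60.8% at 3 genes before, and 64.5% against 58.8% at 7 genes after. Neighbours that were members themselves were left in, although the rule held them at 3 or fewer counts in each D1 library. They made up 5.31% of the genes directly before a member and 5.36% of those directly after. Of 112 members with a neighbour on both sides, 26 had both neighbours at 3 or fewer counts in each D1 library and 21 had both at 100 or more. Thus some members lay in silent surroundings and others beside genes that D1 expressed at 100 counts or more. Neighbours share position and can share regulation, and no test was made over genes.

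**Figure D5:**
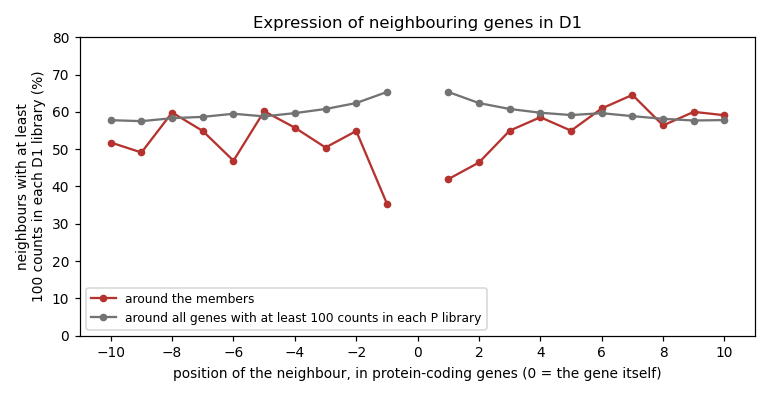
Share (%) of protein-coding neighbours with at least 100 counts in each D1 library, by position from 10 genes before to 10 genes after, around the members and around all genes with at least 100 counts in each P library. The member line dips at the directly adjacent positions, to 35.4% and 42.0%, with neighbours that are members left in. Farther away it lies below the other line at most positions and above it at some. Examples are 46.9% against 59.5% at 6 genes before and 64.5% against 58.8% at 7 genes after.

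The authors' normalised table, whose values start at 35, kept all 134 members. There the members' D1 values ran from 35 to 38.75 and their P values from 113 to 9069, so the log2 ratio of P to D1 had a median of 2.89 and a highest value of 7.94 for Kif26a. An offset of this size narrows the difference for genes of low count, and it leaves the order of P above D1 in each member.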

How the data were processed

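The deposited raw table holds counts per gene symbol. The authors subsampled reads to equal depth, aligned them with STAR 2.7.11b to mRatBN7.2 and counted them with featureCounts, whose strand setting and treatment of mates are not stated in the sources used here. The authors' normalised table holds signal values after noise correction (noisyR) and quantile normalization on a linear scale, used here for 1 description. Libraries were grouped by their labels, and no column was left unmatched. Totals per library lay between 80842635 and 90771289.

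Members and gene lists were chosen with earlier results of these data known. One model of all 12 libraries was fitted with edgeR 4.0.16 (filterByExpr by group, TMM, quasi-likelihood test, Benjamini-Hochberg adjustment over all genes tested) in R 4.3.3. It was checked on simulated data, with changes set only in genes of higher mean count than the members have in PAC1-D. The check therefore does not cover calls on the members. Folds against a group at 0 use a floor of 3 counts per library, and intervals of ratios are exact at 95% for counting error. Alternatives used DESeq2 1.42.0, limma 3.58.1, other filters, a replicate block and leaving out each library. Summaries used Python 3.11.15. Promoters are RefSeq sequences of GRCr8, whose gene table gave order and type only.

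Genes were named by rule: the 12 members highest in P, the 8 highest in the knockdowns, called members (the 10 largest per contrast), up to 5 per list, and the 3 nearest each threshold on either side. Other named members (among them Kcnk5, Kcnj15, Kcns3, Trpv4, Hormad1, Tcam1, Fgg and the adjacent pairs) were chosen after their values were seen, and 1 member that the rule names is not reported here.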

Additional observations from a re-analysis of the deposited data

Results flagged for a closer look

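10 members were called between the knockdowns in the test of MBNL KD against RBPMS KD1, and are listed for that reason. They entered the fit only through their P counts, so the calls are no support for a difference. Lower in MBNL KD were Rtn1 (log2 fold change -4.49, 2, 2 and 4 counts in RBPMS KD1 and 0 in each MBNL KD library), Map7 (-4.10, 2, 4 and 0 against 0), Tnfsf10 (-4.10, 2, 2 and 2 against 0), Kif26a (-3.55, 2, 0 and 2 against 0), LOC103691050 (-2.36, 6, 4 and 2 against 0, 2 and 0) and LOC120094285 (-2.0, 8, 12 and 22 against 4, 0 and 6). Higher in MBNL KD were Cyth4 (1.84, 7, 2 and 6 against 0, 0 and 4), Kcnk1 (2.40, 8, 4 and 0 against 2, 0 and 0), Egln3 (3.58, 2, 2 and 0 against 0) and LOC103694543 (4.12, 4, 2 and 0 against 0). Where 1 group is at 0 the fitted value depends on the prior count of the fit and is no bound. Of the 10, 9 had every count under 10. Egln3 and Kif26a were called on a total of 4 counts each.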

How the results depend on the processing

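The number of members was 134 under the rule, 70 with 0 counts asked of each D1 library, 270 with up to 10, 199 with at least 50 in P, 84 with at least 200, 127 on TMM-scaled counts, and between 134 and 157 without 1 D1 or P library. Members detected in RBPMS KD1 numbered 4, or 19 at over 0 and 0 at over 10 counts in each library, and 5 to 7 without 1 library. In MBNL KD they numbered 1, or 13 and 0, and 5 to 8 without 1 library.

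Called members were 14 in RBPMS KD1 against D1, 11 in MBNL KD against D1 and 10 between the knockdowns. They were 7, 6 and 6 with quantile normalization and limma, 6, 5 and 2 at an adjusted p under 0.01, 8, 9 and 2 with halved counts, and 3, 1 and 1 with over 3 counts in every library of the higher group, the last 2 chosen after the data were seen. DESeq2 called 15, 11 and 8. Leaving out 1 library gave 10 to 16, 7 to 13 and 5 to 12, the lows of 7 and 5 without MBNL KD replicate 1. With the replicate number as a block they were 13, 10 and 6. Same-numbered libraries correlated between -0.033 and 0.020, so the numbers are not taken to pair the libraries. Fits of 6 or of 9 PAC1-D libraries tested 0 members and gave no value. No direction of the 35 called gene results reversed in the refits that tested them (other scaling, filter, tool, replicate block, halved counts or 1 library left out). The rule held D1 at 3 counts or fewer, and several calls between the knockdowns had 1 group at 0. A reversal was thus largely excluded in advance, and its absence shows no stability. Since members passed the filter through P alone, these calls support no difference. Depth limits the knockdown comparisons: most PAC1-D values of the members are 0 to 2 counts.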
